A study of Homo sapiens with 6 samples.

Results

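The 9 genes described here encode part of the machinery that builds and loads MHC class I molecules: the heavy chains HLA-B, HLA-C, HLA-E and HLA-F, the shared light chain beta-2-microglobulin (B2M), the peptide transporter subunits TAP1 and TAP2, the loading factor tapasin (TAPBP) and the class I transactivator NLRC5. They were taken by gene symbol from the 58735 genes of the deposited table, and each symbol stood on 1 row. The samples were 3 libraries of Raji cells exposed to bryostatin-1 at 1 nM overnight and 3 libraries of Raji cells exposed to the solvent DMSO. Raji is a single human B-cell line from a Burkitt lymphoma that carries Epstein-Barr virus, and the cells of every library here also carried a GFP and firefly luciferase construct, written GFP-ffluc in the labels. Bryostatin-1, a marine macrolide, acts on protein kinase C through its diacylglycerol-binding domains. The question was how its presence changed the transcripts of the cells, read from poly(A)-enriched RNA.

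A class I molecule is a heavy chain folded with beta-2-microglobulin around a short peptide, and it shows samples of the cell's own proteins to CD8 T cells and to natural killer cells at the surface. The proteasome cuts proteins into peptides, the TAP transporter pumps them into the endoplasmic reticulum, and tapasin holds the empty class I molecule next to TAP until a well-fitting peptide is bound. In lymphocytes NLRC5, working with the RFX, CREB and NF-Y factors at a conserved promoter module, drives transcription of the heavy chain, B2M, TAP1 and immunoproteasome genes.

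Library depth ran from 19405370 to 24468270 reads on genes. The B-cell markers MS4A1, CD79A, CD79B, PAX5, CD22 and EBF1 were present in every library, and their summed level ran from 928 to 1278 FPKM with bryostatin and from 878 to 1365 FPKM with DMSO. FPKM stands for fragments scaled to exon length and to the mapped total of the library. The summed markers of T, myeloid, epithelial or fibroblast cells, 5 each, reached at most 0.534 FPKM in a bryostatin library and 0.727 FPKM in a DMSO library. Of 5 natural killer cell markers, NKG7 was at up to 3.12 FPKM with bryostatin and 4.54 FPKM with DMSO, KLRD1 and NCR1 were at 0 in every library, and the others reached at most 0.0724 FPKM. DMSO replicate 3 stood apart from its group: its mean Pearson correlation over the tested genes was 0.973 with the other DMSO libraries and 0.977 with the bryostatin libraries. Its 20 proliferation genes lay on average 0.25 above the mean of the 6 libraries on the log2(FPKM + 1) scale, against 0.44, 0.19 and 0.21 in bryostatin replicates 1 to 3 and -0.64 and -0.46 in DMSO replicates 1 and 2. The log2 change of each of the 9 genes is therefore also given without it. That choice rests on these same values, so a gene that passes only without it gains no separate support. Whether the libraries of a group were grown as separate cultures is not given in the labels, and the spread behind each p-value may therefore be technical.

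All 9 genes passed the level needed for testing, a mean of 1 FPKM over the 6 libraries. The order of the genes by mean level per exon length was the same in both treatments except that HLA-B and HLA-E, and TAP1 and TAP2, changed places. HLA-B ranged over the 6 libraries from 136 to 235 FPKM and HLA-E from 100.5 to 218 FPKM, and B2M from 80.6 to 119.7 FPKM. HLA-B overlapped HLA-E, and HLA-E overlapped B2M, so these neighbours did not separate beyond their spread. HLA-C, from 42.2 to 78.7 FPKM, lay below B2M and above TAPBP in every library, though its range overlapped that of TAPBP, 31.5 to 53.5 FPKM. TAP1 and TAP2 shared a range, 13.5 to 21.5 and 15.3 to 19.0 FPKM. HLA-F, at 6.15 to 9.55 FPKM, and NLRC5, at 2.75 to 6.93 FPKM, were the least abundant, and HLA-F lay above NLRC5 in every library although their ranges overlapped. The reads behind a value ran from 535 for HLA-F in DMSO replicate 3 to 17932 for B2M in DMSO replicate 1, so counting error was small beside the spread between libraries.

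None of the 9 genes passed an adjusted p of 0.05 in limma, a linear model with moderated variances fitted to log2(FPKM + 1) over 11071 genes, and the share of all tested genes called was 0%. Voom weights on reads recovered from the FPKM values also called 0 of the 9. At an unadjusted p under 0.05 limma gave 5 of the 9 (HLA-B, HLA-C, B2M, TAPBP and NLRC5), all lower with bryostatin, where 7.18% of all tested genes were lower at that level. That count was 3 with no filter, 3 with the replicate number as a block and 3 without bryostatin replicate 1. It was 1 without bryostatin replicate 3, 2 without DMSO replicate 1 and 6 without DMSO replicate 3. The count over all tested genes moved too, from 795 of 11071 to 1185 of 26970 with no filter and 407 with the block. It was 353 without bryostatin replicate 1, 519 without bryostatin replicate 3, 328 without DMSO replicate 1 and 1131 without DMSO replicate 3. In 3 of the 9 (HLA-B, HLA-C and TAPBP) every bryostatin library lay below every DMSO library, which was so for 10.7% of all tested genes. The log2 change was below 0 for 8 of 9 genes, against 46.1% of all tested genes. Its median was -0.30 over the 9 genes and 0.02 over all tested genes. In bulk RNA, fewer cells with a transcript and less of it per cell cannot be told apart. The proliferation genes differed between the same libraries, with 20 of 20 log2 changes above 0 and a median of 0.57, and their part in the class I values was not tested.

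**Figure D1:**
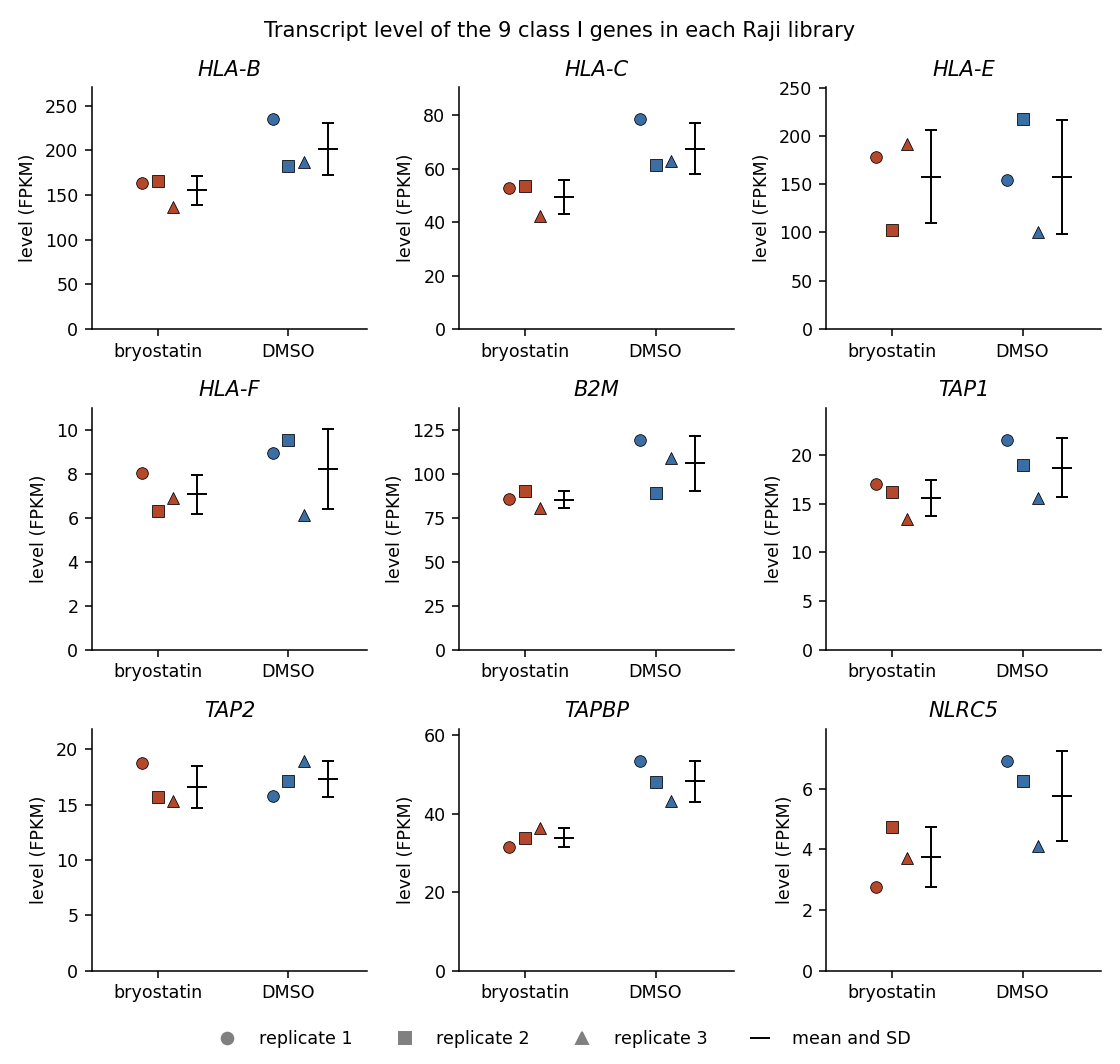
Level of each of the 9 class I genes in FPKM (vertical axes start at 0), by treatment, bryostatin left and DMSO right. Each point is 1 library, its shape gives the replicate number, and the bar gives the mean and SD of 3 libraries. HLA-B, HLA-C and TAPBP show no overlap between the treatments, while HLA-E spans 102 to 192 FPKM with bryostatin and 100.5 to 218 FPKM with DMSO.

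HLA-B and HLA-C encode classical heavy chains, which present peptides to CD8 T cells and engage killer cell immunoglobulin-like receptors. HLA-B (ENSG00000234745, hg38 chromosome 6, 31269491 to 31357188, minus strand) was at 164, 165 and 136 FPKM in bryostatin replicates 1 to 3 and at 235, 182 and 186 FPKM in DMSO replicates 1 to 3. The bryostatin libraries were all lower, and DMSO replicate 1 stood above the other DMSO libraries. The means were 155 ± 16.6 FPKM with bryostatin and 201 ± 29.3 FPKM with DMSO (SD, n = 3 each), a log2 change of -0.37 ± 0.14 (SE; adjusted p = 0.244 in limma), and -0.42 without DMSO replicate 3.

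HLA-C (ENSG00000204525, chromosome 6, 31268749 to 31272130, minus strand) was at 52.6, 53.5 and 42.2 FPKM with bryostatin and at 78.7, 61.3 and 62.7 FPKM with DMSO. It followed HLA-B library by library, with bryostatin replicate 3 lowest and DMSO replicate 1 highest for both genes. Its log2 change was -0.44 ± 0.14 (SE; adjusted p = 0.227 in limma), and -0.49 without DMSO replicate 3. Among 4069 protein-coding genes that averaged 10 FPKM or more, HLA-C was the gene most like HLA-B over the 6 libraries (Pearson r = 0.997 of the log2 values). PMPCB, a subunit of the mitochondrial processing peptidase, came next (r = 0.986), then OTULIN, a deubiquitinase of linear ubiquitin chains (0.983), ABHD12 (0.971) and SMIM14 (0.970). With 6 libraries such values are a description of shared library differences.

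The reference coding sequences of HLA-B and HLA-C, taken as the longest open reading frames of their GENCODE transcripts, were 92.6% identical over aligned bases, against 84.1% to 86.9% for every other pair among the 4 heavy chains. Windows of 50 bases shared exactly with HLA-C made up 1.63% of those of HLA-B. The share was higher for HLA-C with HLA-E (2.43%) and for HLA-E with HLA-F (2.14%). For the remaining pairs it ran from 0.0962% to 1.12%. No window of 100 bases was shared between any pair of the 4. The annotated body of HLA-B extends over HLA-C on the same strand, with 35 exon bases in common. The pseudogene AL671883.2, on the opposite strand and at 0 FPKM, shares 542 bases, 17.8% of the HLA-B exon bases. The alleles of Raji may differ from the reference genome, HLA reads can fall on near-identical copies, and read length is not given in the sources used here, so single HLA levels are uncertain.

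HLA-C was slightly lower relative to HLA-B in every bryostatin library. The within-library ratio of HLA-C to HLA-B was 0.322, 0.323 and 0.311 in bryostatin replicates 1 to 3 and 0.335, 0.336 and 0.336 in DMSO replicates 1 to 3. The 3 DMSO ratios lay within a narrow band above all bryostatin ratios. The mean was 0.319 ± 0.00698 with bryostatin and 0.336 ± 0.000871 with DMSO (SD, n = 3 each). A two-sided exact permutation test gave p = 0.1, the smallest that 3 against 3 allows, and 0.4 after Benjamini-Hochberg adjustment over the 4 ratios computed. The log2 difference was -0.08 over all libraries and -0.07 without DMSO replicate 3.

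HLA-E presents peptides from the signal sequences of other class I chains and is the ligand of the inhibitory receptor CD94-NKG2A on natural killer cells. Its order of libraries by level differed from that of HLA-B and HLA-C, but its change was not tested against theirs. HLA-E (ENSG00000204592, chromosome 6, 30489467 to 30494205, plus strand) was at 179, 102 and 192 FPKM with bryostatin and at 154, 218 and 100.5 FPKM with DMSO. The lowest libraries were 1 of each treatment, bryostatin replicate 2 and DMSO replicate 3, and the groups overlapped across nearly their whole range. The means were 158 ± 48.3 FPKM with bryostatin and 157 ± 58.7 FPKM with DMSO (SD, n = 3 each). The log2 change was 0.02 (adjusted p = 0.982 in limma), and its 95% interval reached from -0.76 up to 0.80. That interval includes the estimates for HLA-B (-0.37) and HLA-C (-0.44). The sign turned with TPM, median-of-ratios and quantile scaling (-0.03, -0.0038 and -0.07), without DMSO replicate 3 (-0.27), without bryostatin replicate 1 (-0.10) and without bryostatin replicate 3 (-0.15).

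The genes most like HLA-E over the 6 libraries, a list added after its values were seen, were IFNGR1 (Pearson r = 0.990), which encodes a chain of the interferon-gamma receptor, PCNX3 (0.987), LTA (0.987), which encodes lymphotoxin alpha, ERO1B (0.984), an oxidase of disulfide bond formation, and CD22 (0.984), an inhibitory B-cell receptor. LTA was at 98.7, 27.9 and 104.2 FPKM with bryostatin and at 60.8, 163.7 and 32.7 FPKM with DMSO, again lowest in bryostatin replicate 2 and DMSO replicate 3. The mean of the 6 B-cell markers, CD22 among them, was also lowest in those libraries. It was 0.28 below the mean of all libraries in bryostatin replicate 2 and 0.22 below in DMSO replicate 3. It was highest in DMSO replicate 2, at 0.28 above. Single markers differed: in DMSO replicate 3 EBF1 (10.1 FPKM) was above its mean of 9.51 FPKM, and PAX5 (43.3 FPKM) was near its mean of 44.0 FPKM. MS4A1, CD79A, CD79B and CD22 were below their means there. The part of this library pattern in the HLA-E values was not tested.

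**Figure D2:**
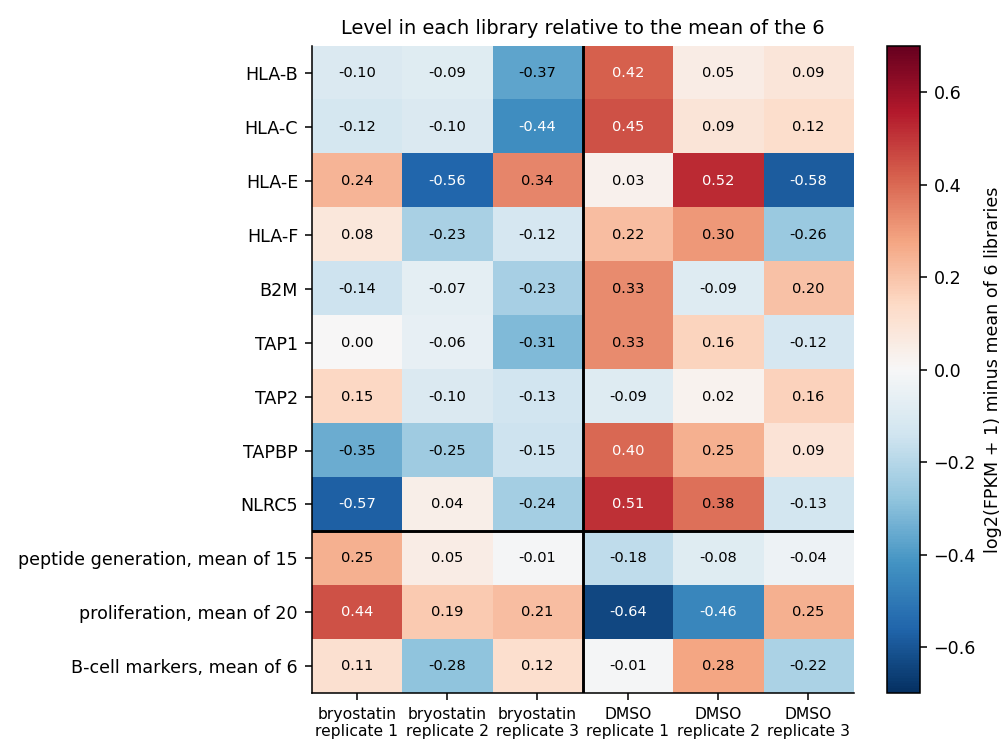
Level of each of the 9 class I genes in each library, and the mean of 3 gene lists, as log2(FPKM + 1) minus the mean of the 6 libraries (colour and printed value), with bryostatin libraries left of DMSO libraries. HLA-B and HLA-C share 1 pattern, HLA-E follows the B-cell marker mean, and DMSO replicate 3 has a proliferation mean of 0.25, close to the bryostatin libraries.

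HLA-F encodes a nonclassical chain that can also reach the surface without peptide. HLA-F (ENSG00000204642, chromosome 6, 29722775 to 29738528, plus strand) was at 8.04, 6.31 and 6.88 FPKM with bryostatin and at 8.93, 9.55 and 6.15 FPKM with DMSO. DMSO replicate 3 lay below all bryostatin libraries and the other DMSO libraries above them. The log2 change was -0.18 ± 0.16 (SE; adjusted p = 0.581 in limma), and -0.35 without DMSO replicate 3 (adjusted p = 0.124). The antisense gene HLA-F-AS1, at a mean of 0.227 FPKM, shares 535 exon bases with HLA-F. Also on the opposite strand, the pseudogene AL645939.1 shares 701 bases (mean 0.00841 FPKM) and RPL23AP1 shares 257 (0 FPKM). The strand setting of the counting is not given in the sources used here.

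The 4 heavy chains summed to 403, 328 and 377 FPKM with bryostatin and to 477, 471 and 356 FPKM with DMSO. DMSO replicate 3 lay inside the bryostatin range and the other DMSO libraries above it. HLA-E held 44.3%, 31.2% and 50.9% of this sum with bryostatin and 32.3%, 46.2% and 28.2% with DMSO, and HLA-B held 40.6%, 50.5% and 36.1% with bryostatin and 49.3%, 38.7% and 52.4% with DMSO. Which chain led the sum thus changed between libraries of the same treatment. HLA-F held 2.03% or less in every library. HLA-G, a chain best known from placental trophoblast, had 0 reads in all 6 libraries, which allows at most 0.0897 FPKM at 3 reads (counting error only).

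B2M encodes the light chain with which the class I heavy chains fold. B2M (ENSG00000166710, chromosome 15, 44711487 to 44718877, plus strand) was at 85.7, 90.3 and 80.6 FPKM with bryostatin and at 119.7, 89.2 and 109.5 FPKM with DMSO. DMSO replicate 2 lay inside the bryostatin range and the other DMSO libraries above it. The means were 85.5 ± 4.85 FPKM with bryostatin and 106 ± 15.5 FPKM with DMSO (SD, n = 3 each), a log2 change of -0.30 ± 0.12 (SE; adjusted p = 0.279 in limma), and -0.27 without DMSO replicate 3.

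HLA-B kept close to B2M. The ratio of HLA-B to B2M was 1.91, 1.83 and 1.69 with bryostatin and 1.96, 2.04 and 1.70 with DMSO, overlapping between the treatments (two-sided exact permutation p = 0.5, adjusted p = 0.8). Its log2 difference was -0.07 over all libraries and -0.15 without DMSO replicate 3. The ratio of the 4 summed heavy chains to B2M was 4.70, 3.63 and 4.68 with bryostatin and 3.99, 5.28 and 3.25 with DMSO (exact permutation p = 0.9, adjusted p = 0.9). The libraries with the lowest ratios, DMSO replicate 3 and bryostatin replicate 2, were those with the lowest HLA-E.

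**Figure D3:**
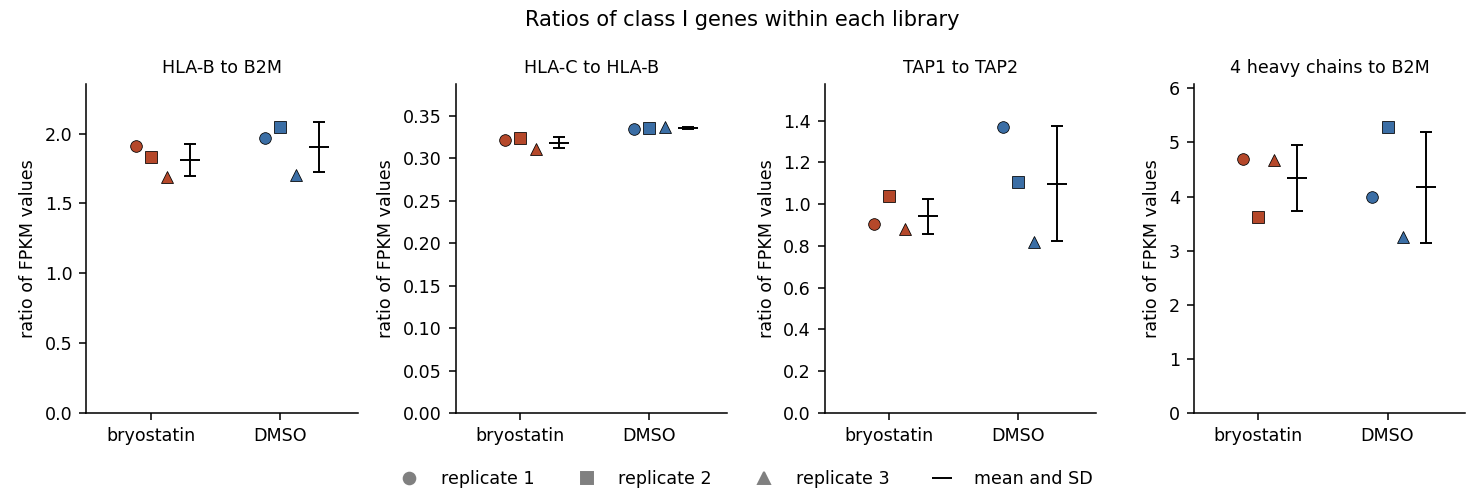
Ratios of FPKM values within each library (vertical axes start at 0), bryostatin left and DMSO right. Points are libraries, shapes are replicate numbers and bars are the mean and SD of 3 libraries. Only the ratio of HLA-C to HLA-B, among these 4, separates the treatments, at 0.311 to 0.323 with bryostatin and 0.335 to 0.336 with DMSO.

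The 250 bases upstream of the RefSeq transcription start of 5 of the genes are shown because the heavy chains and B2M are known to share a promoter module, and because HLA-B and HLA-C varied alike over the libraries. RefSeq promoters (GRCh38.p14, the same coordinates as hg38) were found for 7 of the 9 genes, all but HLA-E and NLRC5. Capitals mark matches on either strand to TGACG, the core of a CRE site bound by CREB and ATF factors, CCAAT, the NF-Y box, GAAA and GAAA 2 bases apart or, in a shorter form, GAA and GAAA 2 bases apart, the element bound by interferon regulatory factors, and an NF-kB element of GGG, 2 bases, T, 2 bases and CC. Adjacent or overlapping matches merge into 1 run of capitals. HLA-B is at chr6:31357180-31357429 and HLA-C at chr6:31272093-31272342, both on the minus strand, HLA-F at chr6:29723184-29723433 and B2M at chr15:44711267-44711516, both on the plus strand, and TAPBP at chr6:33314079-33314328 on the minus strand.
HLA-B: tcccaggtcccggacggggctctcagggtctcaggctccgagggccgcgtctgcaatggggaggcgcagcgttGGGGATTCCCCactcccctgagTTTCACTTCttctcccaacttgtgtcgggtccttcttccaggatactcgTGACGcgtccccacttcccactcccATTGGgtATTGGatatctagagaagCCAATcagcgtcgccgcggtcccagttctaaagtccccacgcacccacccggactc
HLA-C: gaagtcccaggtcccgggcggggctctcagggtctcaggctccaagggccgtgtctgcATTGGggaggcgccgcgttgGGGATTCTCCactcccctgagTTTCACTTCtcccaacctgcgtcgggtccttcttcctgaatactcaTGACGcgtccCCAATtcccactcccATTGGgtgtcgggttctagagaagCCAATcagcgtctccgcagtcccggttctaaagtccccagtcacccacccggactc
HLA-F: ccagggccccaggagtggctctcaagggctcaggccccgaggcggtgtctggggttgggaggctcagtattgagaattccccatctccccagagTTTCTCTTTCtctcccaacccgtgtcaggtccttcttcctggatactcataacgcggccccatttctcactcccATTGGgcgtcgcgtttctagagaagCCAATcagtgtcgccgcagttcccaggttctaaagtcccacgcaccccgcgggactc
B2M: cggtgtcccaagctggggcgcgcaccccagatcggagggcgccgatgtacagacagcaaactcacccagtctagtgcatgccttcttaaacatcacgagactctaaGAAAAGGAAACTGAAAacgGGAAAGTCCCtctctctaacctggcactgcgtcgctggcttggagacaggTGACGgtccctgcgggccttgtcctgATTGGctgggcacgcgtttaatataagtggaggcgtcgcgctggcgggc
TAPBP: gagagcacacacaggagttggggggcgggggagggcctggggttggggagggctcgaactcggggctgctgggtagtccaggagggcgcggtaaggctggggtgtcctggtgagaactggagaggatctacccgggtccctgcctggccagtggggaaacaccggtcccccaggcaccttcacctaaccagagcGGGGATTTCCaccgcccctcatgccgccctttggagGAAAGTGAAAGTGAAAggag
The CRE core followed by ATTGG, the CCAAT box on the other strand, at a distance of 10 to 40 bases was present in HLA-B, HLA-C and B2M and in 0.484% of 35116 RefSeq promoters of the same length. In HLA-B the core began 106 bases before the start, in HLA-C 105 and in B2M 75. HLA-F had CCAAT boxes but not the letters TGACG, and TAPBP had neither. Among genes with the spaced pair the treatments overlapped for B2M and not for HLA-B or HLA-C. The treatments also did not overlap for TAPBP, which lacks the pair. Of all tested genes 10.7% were lower with bryostatin without overlap. A link between the spaced pair and the change with bryostatin was not tested. The longer interferon regulatory factor motif stood in HLA-F, B2M, TAP1, TAP2 and TAPBP and in 3.02% of all promoters, and the shorter one in HLA-B, HLA-C and TAP2 and in 6.56%. The NF-kB motif stood in HLA-B, HLA-C, B2M, TAP1 and TAPBP and in 19.7%. All TAP1 matches were in 1 of its 2 RefSeq promoters, and the other held none of these motifs. TGACG alone was in 21.2% and CCAAT in 32% of all promoters. A match describes letters and not binding.

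TAP1 and TAP2 encode the subunits of the transporter that moves peptides into the endoplasmic reticulum. TAP1 (ENSG00000168394, chromosome 6, 32845209 to 32853978, minus strand) was at 17.0, 16.2 and 13.5 FPKM with bryostatin and at 21.5, 19.0 and 15.5 FPKM with DMSO. DMSO replicate 3 lay inside the bryostatin range. The log2 change was -0.24 ± 0.14 (SE; adjusted p = 0.385 in limma), and -0.37 without DMSO replicate 3 (adjusted p = 0.135). TAP2 (ENSG00000204267, chromosome 6, 32821833 to 32838780, minus strand) was at 18.8, 15.6 and 15.3 FPKM with bryostatin and at 15.8, 17.2 and 19.0 FPKM with DMSO. The groups overlapped, with the lowest TAP2 of the DMSO group in DMSO replicate 1, the library with the highest TAP1. The log2 change was -0.06 with a 95% interval from -0.32 to 0.20 (adjusted p = 0.797 in limma), and 0.0045 without DMSO replicate 3.

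The ratio of TAP1 to TAP2 was 0.905, 1.04 and 0.882 with bryostatin and 1.37, 1.11 and 0.818 with DMSO, so the highest and the lowest ratio were both in the DMSO group (two-sided exact permutation p = 0.6, adjusted p = 0.8). The log2 difference of this ratio was -0.19 over all libraries, -0.39 without DMSO replicate 3 and -0.02 without DMSO replicate 1. PSMB9, an immunoproteasome subunit whose gene lies beside TAP1 on the opposite strand and whose annotated body overlaps it, was at 24.0, 22.1 and 17.3 FPKM with bryostatin and at 15.3, 18.5 and 16.6 FPKM with DMSO (log2 change 0.31, adjusted p = 0.295 in limma). These neighbours thus had estimates of opposite sign, and no exon base is shared between them. PSMB8-AS1, at a mean of 3.31 FPKM, shares 456 bases, 9.49% of the TAP1 exon length, on the opposite strand. AL669918.1, annotated on the same strand as TAP2, covers 32.3% of the TAP2 exon bases and was at a mean of 0.0025 FPKM, so reads of that stretch cannot be assigned with certainty. RPL3P2 in the body of HLA-B and AC023825.2 in that of NLRC5 share no exon base with them, and AC023825.2 was at a mean of 0.512 FPKM.

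TAPBP had the smallest p of the 9 genes. Its product tapasin bridges TAP and the class I molecule and favours exchange of weakly bound peptides. TAPBP (ENSG00000231925, chromosome 6, 33299694 to 33314387, minus strand) was at 31.5, 33.8 and 36.3 FPKM with bryostatin and at 53.5, 48.0 and 43.1 FPKM with DMSO. Every bryostatin library lay below every DMSO library. The means were 33.9 ± 2.42 FPKM with bryostatin and 48.2 ± 5.22 FPKM with DMSO (SD, n = 3 each), a log2 change of -0.49 ± 0.11 (SE; 95% interval -0.75 to -0.24; unadjusted p = 0.00236, adjusted p = 0.216 in limma), 1.41-fold lower. Without DMSO replicate 3 the log2 change was -0.57 and passed at adjusted p = 0.0469 in limma, as 2.41% of all tested genes did (0.641% as lower). That fit compares bryostatin with DMSO replicates 1 and 2 alone. DMSO replicate 3 was singled out because these same values placed it near the bryostatin libraries. Over all tested genes 0 passed with it and 267 without it, so the pass of TAPBP is not separate support.

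NLRC5 encodes a nucleotide-binding protein that enters the nucleus and switches on class I genes. NLRC5 (ENSG00000140853, chromosome 16, 56989485 to 57083531, plus strand) was at 2.75, 4.73 and 3.73 FPKM with bryostatin and at 6.93, 6.27 and 4.10 FPKM with DMSO. DMSO replicate 3 lay inside the bryostatin range, and the other DMSO libraries lay above all others. The means were 3.74 ± 0.990 FPKM with bryostatin and 5.77 ± 1.48 FPKM with DMSO (SD, n = 3 each). The log2 change was -0.51 ± 0.21 (SE; adjusted p = 0.271 in limma). With single libraries left out it ran from -0.35 without bryostatin replicate 1 to -0.70 without DMSO replicate 3 (adjusted p = 0.0880). Its 95% interval was the only one of the 9 that reached beyond 2-fold, with a lower end of -1.003 and an upper end of -0.02.

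The genes most like NLRC5 over the 6 libraries were TPCN1, a lysosomal ion channel (Pearson r = 0.995), TMEM129, a ubiquitin ligase of the endoplasmic reticulum (0.984), the B-cell kinase BTK (0.983), CCDC74A (0.981) and MMAB, an enzyme of vitamin B12 metabolism (0.980). No class I gene was among these 5, but only genes averaging 10 FPKM or more were compared, which left out HLA-F. A list of 5 cannot show how far the class I genes below it resembled NLRC5. TPCN1 was at 11.8, 17.8 and 14.8 FPKM with bryostatin and at 22.6, 22.4 and 15.9 FPKM with DMSO. As in NLRC5, bryostatin replicate 1 was lowest, and DMSO replicate 3 lay inside the bryostatin range. NLRC5 and HLA-B were both highest in DMSO replicate 1, as were HLA-C, B2M, TAP1 and TAPBP but not HLA-E, HLA-F or TAP2. The lowest library of NLRC5 was bryostatin replicate 1, as for TAPBP, against bryostatin replicate 3 for HLA-B.

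**Figure D4:**
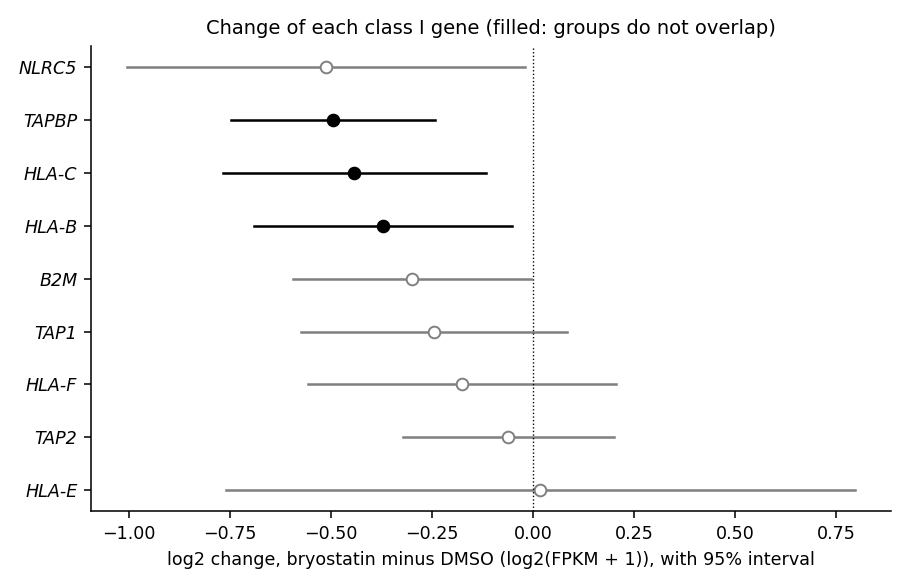
Log2 change of each of the 9 class I genes, bryostatin minus DMSO on the log2(FPKM + 1) scale (horizontal axis), with 95% intervals from limma over 3 libraries per treatment. Filled points are genes whose groups do not overlap: TAPBP (-0.49), HLA-C (-0.44) and HLA-B (-0.37). Adjusted p-values ran from 0.216 to 0.982, so none of the 9 passed.

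Of 49 further genes of the class I pathway, arranged in 4 lists, 44 were tested and 0 passed an adjusted p of 0.05 in limma or with voom weights. At an unadjusted p under 0.05, limma gave 9 higher and 1 lower with bryostatin, where 10.5% of all tested genes were higher and 7.18% lower. Those counts were 11 and 3 without DMSO replicate 3, and 2 and 0 with the replicate number as a block. They were 1 and 0 without bryostatin replicate 1 or without DMSO replicate 1. Over all tested genes the counts were 1159 higher and 795 lower in the main fit, and 1730 and 1131 without DMSO replicate 3. They were 784 and 407 with the block, 560 and 353 without bryostatin replicate 1, and 641 and 328 without DMSO replicate 1. Genes that make peptides lay mostly on the other side of 0 from the 9 genes. Of 15 proteasome, activator and peptidase genes, 13 had a log2 change above 0, with a median of 0.16, and 6 were higher at an unadjusted p under 0.05. PSMB6, a catalytic subunit of the standard proteasome, was at 57.7, 48.5 and 43.8 FPKM with bryostatin and at 36.6, 41.7 and 37.3 FPKM with DMSO (log2 change 0.36, adjusted p = 0.232 in limma). PSMB5, another catalytic subunit, had a log2 change of 0.28 (adjusted p = 0.240 in limma). For both genes every bryostatin library lay above every DMSO library, which was so for 12.9% of all tested genes. PSME2, a subunit of the PA28 activator, averaged 30.5 ± 4.22 FPKM with bryostatin and 23.2 ± 2.34 FPKM with DMSO (log2 change 0.37, adjusted p = 0.232 in limma), and its partner PSME1 averaged 97.4 ± 11.0 FPKM with bryostatin and 101.7 ± 16.2 FPKM with DMSO. The other immunoproteasome subunits PSMB8 and PSMB10 had log2 changes of 0.16 and 0.15 with overlapping groups. The mean of this list was highest in bryostatin replicate 1, 0.25 above the mean of the 6 libraries, and lowest in DMSO replicate 1, 0.18 below it. Those were also the libraries with the highest and the lowest proliferation mean, 0.44 and -0.64. The part of the proliferation pattern in these values was not tested.

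Of 8 tested genes of assembly in the endoplasmic reticulum, 3 had a log2 change above 0. CALR, the lectin chaperone calreticulin of the loading complex, was at 348, 292 and 279.5 FPKM with bryostatin and at 233, 237 and 243 FPKM with DMSO (log2 change 0.36, adjusted p = 0.217 in limma). It was higher in every bryostatin library, which was so for 12.9% of all tested genes. CALR thus lay opposite to TAPBP within the same complex. CANX, its membrane-bound relative calnexin, had a log2 change of -0.04 with overlapping groups, and ERAP2, a peptide-trimming aminopeptidase, had 0.25, also overlapping. ERAP1, its partner enzyme, lay lower in every bryostatin library at 13.9, 12.9 and 13.7 FPKM, against 14.7, 15.2 and 15.2 FPKM with DMSO (log2 change -0.14, adjusted p = 0.341 in limma). Such a separation, lower with bryostatin, was found for 10.7% of all tested genes.

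Among 15 transcription factor genes of the pathway the median log2 change was 0.02. RFX5 and RFXAP, subunits of the RFX complex that NLRC5 works with, had log2 changes of -0.09 and 0.36 (adjusted p = 0.564 and 0.270 in limma), and IRF8, a B-cell and myeloid regulator, had -0.13. EZH2, the methyltransferase of the Polycomb complex PRC2, averaged 18.1 ± 1.46 FPKM with bryostatin and 14.4 ± 2.15 FPKM with DMSO (log2 change 0.32, adjusted p = 0.257 in limma). Of 6 tested class I-like genes, MR1, which presents vitamin B metabolites to MAIT cells, was at 1.87, 1.94 and 1.90 FPKM with bryostatin and at 2.87, 2.62 and 2.21 FPKM with DMSO (log2 change -0.29, adjusted p = 0.236 in limma). MICA and MICB, stress-induced ligands of the NKG2D receptor, had log2 changes of 0.11 and 0.20, and FCGRT, the neonatal Fc receptor chain, had -0.36, all with overlapping groups. Of 11 class I pseudogenes present, HLA-K alone was abundant enough to test, at 5.09, 4.59 and 6.38 FPKM with bryostatin and at 4.19, 5.67 and 3.67 FPKM with DMSO.

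**Figure D5:**
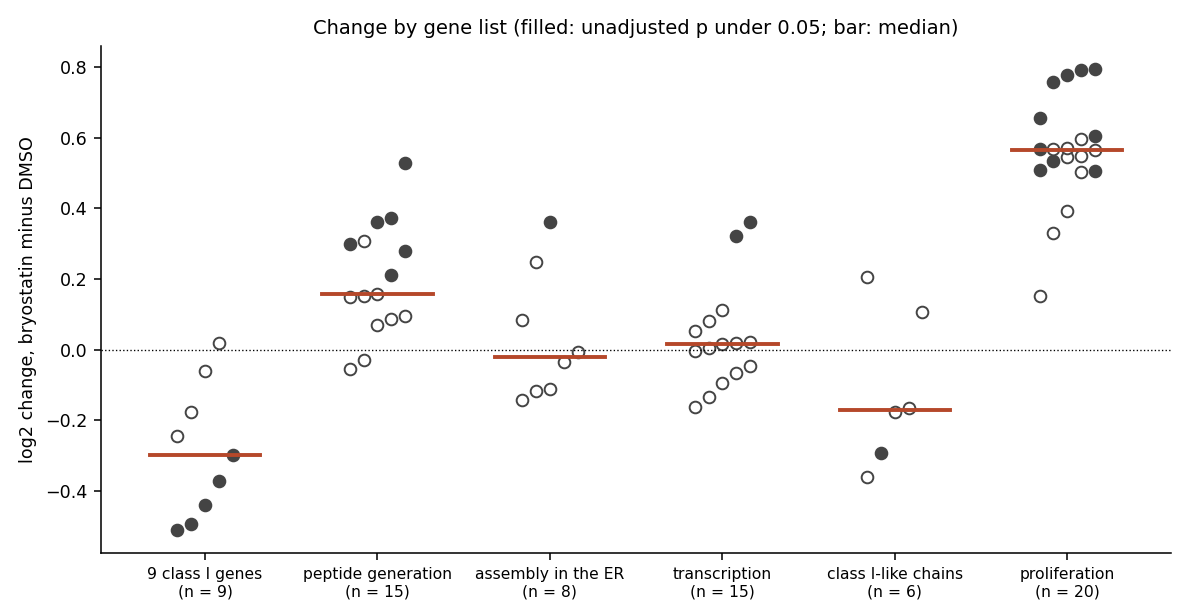
Log2 change, bryostatin minus DMSO, of each tested gene (points) of the 9 class I genes, 4 further pathway lists and the proliferation list. Filled points have an unadjusted p under 0.05, none passed after adjustment, and bars are medians: -0.30 for the 9 class I genes, 0.16 for peptide generation and 0.57 for proliferation.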

How the data were processed

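RNA was extracted with a column kit and poly(A)-enriched, per the labels' protocols. The deposited values are FPKM made by the authors for 58735 genes in 6 libraries, and the deposited gene lengths are in bases. Listed in the submitters' processing notes, without role or order, are hg38, DESeq2 1.20.0, featureCounts 1.5.0-p3, HISAT2 2.0.5 and CASAVA. The sources used here give no strand setting, read length or annotation release, but the coordinates of 58735 genes are identical in GENCODE release 29. FPKM times length, divided by the value of 1 read estimated for each library from its low values, came out whole (tolerance 0.01 reads) for 100% of values, 19405370 to 24468270 reads a library.

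Libraries were grouped by the treatment label, 3 bryostatin and 3 DMSO. Genes averaging 1 FPKM or more, 11071 in number, entered limma 3.58.1 (R 4.3.3) on the log2(FPKM + 1) scale, with an intensity trend, and p-values were adjusted over all of them by Benjamini-Hochberg (threshold 0.05). Fold changes on this scale understate changes of weakly expressed genes, NLRC5 most of the 9. The 4 ratios had exact permutation tests. The members and gene lists were chosen with earlier results of these data known, and the promoter motifs with the promoters in view. Named in each pathway list are the 2 genes of highest mean and the 2 of smallest p, and beside HLA-B and NLRC5 the 5 most similar genes; PSMB8, PSMB9, PSMB10, ERAP1 and HLA-K were added after their values were seen. Every library pair differed beyond counting noise (chi-square per gene 11.6 or more). Alternatives covered pseudocount, filter, scaling, moderation, voom weights, the replicate block, protein-coding genes alone and each library left out. One item of the B-cell marker list is not reported here, and the list was summarised without it.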

Additional observations from a re-analysis of the deposited data

How the results depend on the processing

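Of the results for the 9 genes, HLA-B, HLA-C, HLA-F, B2M, TAP1, TAPBP and NLRC5 had a log2 change below 0 in every fit that gave one (NLRC5 was not tested with a filter of 5 FPKM). HLA-E turned to -0.0299 with TPM, -0.0038 with median-of-ratios and -0.0715 with quantile normalization, and ran from -0.27 to 0.30 with single libraries left out. TAP2 ran from -0.15 to 0.0045, TAPBP from -0.57 to -0.42, and the log2 difference in the ratio of the 4 heavy chains to B2M from -0.0916 to 0.26. The values 0.0045, -0.57 and -0.0916 were those without DMSO replicate 3. The median log2 change over the 9 genes was -0.42 with quantile normalization and ran from -0.42 to -0.21 with single libraries left out, -0.42 being that without DMSO replicate 2. The number of the 9 past an adjusted p of 0.05 was 0 in all fits over 6 libraries and 0 to 1 with a library left out. Over all genes it was 0, against 1 with a pseudocount of 0.1, 1 with TPM and 0 to 267 with a library left out, 267 without DMSO replicate 3. The other pathway genes gave 0 in every fit. With single libraries left out, the only alternative run for it, the log2 difference of the ratio of HLA-C to HLA-B stayed between -0.09 and -0.06. At an unadjusted p under 0.05 the 9 genes gave 1 to 6 lower and 0 higher with a library left out, 1 without bryostatin replicate 3, and 3 lower with no filter or with the replicate block. The other pathway genes gave 9 higher and 1 lower, 5 and 2 with TPM or quantile normalization, and 2 and 0 with the replicate block. They gave 11 and 3 without DMSO replicate 3, and 1 and 0 without bryostatin replicate 1 or DMSO replicate 1. The counts over all tested genes moved too, with 328 lower without DMSO replicate 1 and 1131 lower without DMSO replicate 3. With TPM they were 848 higher and 1099 lower, and with quantile normalization 893 and 1017.

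Same-numbered libraries deviated from their group means with correlations of -0.29, -0.32 and -0.11, and unlike-numbered ones with -0.0644 to 0.315. Such values cannot show whether same-numbered libraries were handled together. With the replicate number as a block 0 genes passed, and the adjusted p was 0.456 for HLA-B, HLA-C and TAPBP. The summed alternative for symbols on several rows gave no value, since each symbol has 1 row. Adjusted p-values of TAPBP ran from 0.149 to 0.456 over the alternatives with all libraries. Depth limits these genes little, since the lowest of the 9 had 535 reads; the spread between 3 libraries a group sets the intervals.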
